A study of Homo sapiens with 9 samples.

Results

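The genes described here are 50 genes of the G2 and M phases of the cell cycle, the phases in which a cell that has copied its DNA prepares to divide and divides. They were chosen by name, with earlier results of these data known. The list of proliferation and mitosis genes runs from the transcription factor gene MYBL2 and the kinase gene PLK1 to the proliferation marker gene MKI67. All 50 names were found among the 60683 gene rows of each count file, and all 50 passed the filter on low counts, as 16159 genes did. The question put to them is how far they moved together in drug-adapted cells, and where MKI67 and a few others stood beside MYBL2 and PLK1.

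Messenger RNA was sequenced from wild-type human cells labelled HCT-15, a line from a colorectal adenocarcinoma, in 3 groups of 3 libraries. The untreated group carried no drug. The oxaliplatin group had been given 0.5 µM of this DNA-binding platinum compound for 7 days, then 1, 2 and 4 µM between day 10 and day 30, and was kept at 4 µM. The sorafenib group had been adapted to sorafenib, an inhibitor of RAF and receptor tyrosine kinases, by a similar schedule whose doses the labels do not give. Both drug groups are populations selected over weeks, labelled as the same line as the untreated cells, and nothing says that the 3 libraries of a group came from separate cultures. The p-values therefore reflect how far these libraries scatter, which may be a technical matter only.

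In a dividing cell, CDK1 bound to cyclin B drives entry into mitosis, Polo and Aurora kinases build the spindle and attach chromosomes to it, and the spindle checkpoint holds the cell until every kinetochore is attached. The anaphase-promoting complex then marks securin and cyclin B for destruction, so that separase can part the sister chromatids and the cell can cleave. The genes of this programme are transcribed late in the cycle. They are switched on by the MuvB complex with B-MYB, the product of MYBL2, and FOXM1, and are held off in resting cells by the DREAM complex, which binds a promoter element called CHR. MKI67 encodes Ki-67, a large protein that coats mitotic chromosomes and is used in pathology to mark cycling cells.

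The libraries held 15797076 to 20936536 counts, with 22564 to 24338 genes detected per library. Within groups the libraries were further apart than counting error alone gives (chi-square divided by its degrees of freedom, 16.9 to 36.3) and were kept as separate samples. The labelled tissue was checked against marker genes. Of 16 colorectal epithelial markers, 15 had a median under 1 CPM (the count relative to the TMM-scaled total of the library), and 9 had 0 counts in every library, among them CDX2, CDH1 and KRT20. EPCAM had a median of 0.643 CPM and a highest value of 1.38 CPM. The summed level of the list was 14.2 to 19.5 CPM in untreated, 17.3 to 21.5 CPM in oxaliplatin and 16.4 to 18.3 CPM in sorafenib libraries. Of 14 renal epithelial markers 10 had a median of 1 CPM or more, with PAX8 at 336 CPM, and the list summed to 571 to 744, 873 to 901 and 788 to 821 CPM in the same order. Of the 11 renal markers that were tested, 6 rose and 1 fell with oxaliplatin, and 1 rose with sorafenib (the test is given below). Over all genes tested 16.2% were called higher and 15.5% lower with oxaliplatin, and 2.82% and 1.97% with sorafenib. Of 10 immune markers 9 had a median under 1 CPM, and the list summed to 25.5 to 48.3, 20.6 to 57.8 and 17.9 to 50.3 CPM. Of 10 fibroblast and endothelial markers 8 had a median under 1 CPM and 5 had 0 counts in every library, among them COL3A1, VWF and KDR. That list summed to 11.4 to 48.9 CPM in untreated, 16.6 to 24.7 CPM in oxaliplatin and 4.13 to 4.94 CPM in sorafenib libraries, and its COL1A1 and PDGFRB, the 2 genes tested, fell with sorafenib. These marker levels go against the labelled tissue, and the sample titles carry a further code that the labels do not explain, so the identity of the cells rests on the label alone. The part of these markers in the results below was not tested.

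The promoters of 6 of the genes are printed because the CHR word TTTGAA and the CCAAT word, which NF-Y binds, are what many genes of this programme share. Each run is the 130 bases before the transcription start in RefSeq (GRCh38.p14), 5′ to 3′ on the strand of the gene, in lower case, with TTTGAA and CCAAT in capitals, on either strand (TTCAAA and ATTGG are the reverse complements). MYBL2, PLK1 and CCNB2 fell with oxaliplatin, whereas MKI67, CENPF and TOP2A did not pass the test, and CENPF and TOP2A were picked for printing after their values were seen. They lie at chr20:43666984-43667113 for MYBL2, chr16:23678759-23678888 for PLK1, chr15:59105016-59105145 for CCNB2, chr10:128126424-128126553 (minus strand) for MKI67, chr1:214603065-214603194 for CENPF and chr17:40417897-40418026 (minus strand) for TOP2A.
MYBL2: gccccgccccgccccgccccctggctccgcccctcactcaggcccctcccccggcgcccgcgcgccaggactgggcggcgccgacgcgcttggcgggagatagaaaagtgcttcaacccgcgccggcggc
PLK1: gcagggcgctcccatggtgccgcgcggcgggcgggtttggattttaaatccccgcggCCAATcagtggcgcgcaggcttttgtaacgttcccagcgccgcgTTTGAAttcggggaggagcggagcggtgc
CCNB2: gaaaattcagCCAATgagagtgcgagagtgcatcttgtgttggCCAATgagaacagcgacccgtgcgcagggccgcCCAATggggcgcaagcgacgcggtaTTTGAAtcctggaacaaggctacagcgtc
MKI67: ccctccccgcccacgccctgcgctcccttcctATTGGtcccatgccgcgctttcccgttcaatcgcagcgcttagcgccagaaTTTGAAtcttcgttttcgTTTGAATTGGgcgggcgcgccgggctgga
CENPF: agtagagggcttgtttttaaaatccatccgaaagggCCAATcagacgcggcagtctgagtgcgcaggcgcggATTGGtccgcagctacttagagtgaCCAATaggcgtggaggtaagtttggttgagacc
TOP2A: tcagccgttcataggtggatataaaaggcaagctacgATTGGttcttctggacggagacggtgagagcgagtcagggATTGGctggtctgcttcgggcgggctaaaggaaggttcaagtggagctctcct

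PLK1 and CCNB2 each hold TTTGAA with its first base 29 bases before the start, and MKI67 holds it at 47 and again at 29 bases. The second copy in MKI67 runs into an ATTGG, which begins 24 bases before the start. CENPF and TOP2A show 3 and 2 CCAAT words in these stretches, and MYBL2 shows neither word. RefSeq entries matched 42 of the 50 genes by symbol. In the window from 250 bases before to 50 bases after the start, 27 of the 42 promoters (64.3%) held TTTGAA on either strand, against 15.4% of 27305 promoters of the same length. CCAAT was present in 31 (73.8%) against 35.7%. The E2F words TTTCCCGC, TTTGGCGC, TTTCGCGC and TTTGCCGC were present in 3 (7.14%) against 3.33%. TTTGAA was found in 12 of the 22 matched genes that fell with oxaliplatin and in 15 of the 20 that did not, and CCAAT in 16 and 15. A match is a description of letters and no evidence of binding, and these shares were not tested.

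With oxaliplatin most of the programme stood lower. Of the 50 genes, 26 fell, 1 rose (ASPM) and 23 did not pass the test (edgeR's quasi-likelihood test, Benjamini-Hochberg adjustment over all 16159 genes, adjusted p under 0.05, as for every call below). Over all genes tested, 15.5% were called lower and 16.2% higher, 31.7% in all. The roles described below hold 2 to 8 genes each. Their counts of calls stand beside these same shares, and differences between roles were not tested. The log2 fold change was negative in 43 of the 50, with a median of -0.50 against 0.02 over all genes tested. All 3 oxaliplatin libraries lay below all 3 untreated ones for 34 of the 50 genes, against 23.2% of all genes tested. These are bulk samples, in which fewer dividing cells and less of each transcript per cell cannot be told apart. Scaling by library size alone moved the median of all genes to 0.13 and left 23 genes lower and 1 higher, with a median of -0.38. This scaling called 1794 of the 16159 genes tested lower and 3395 higher.

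**Figure D1:**
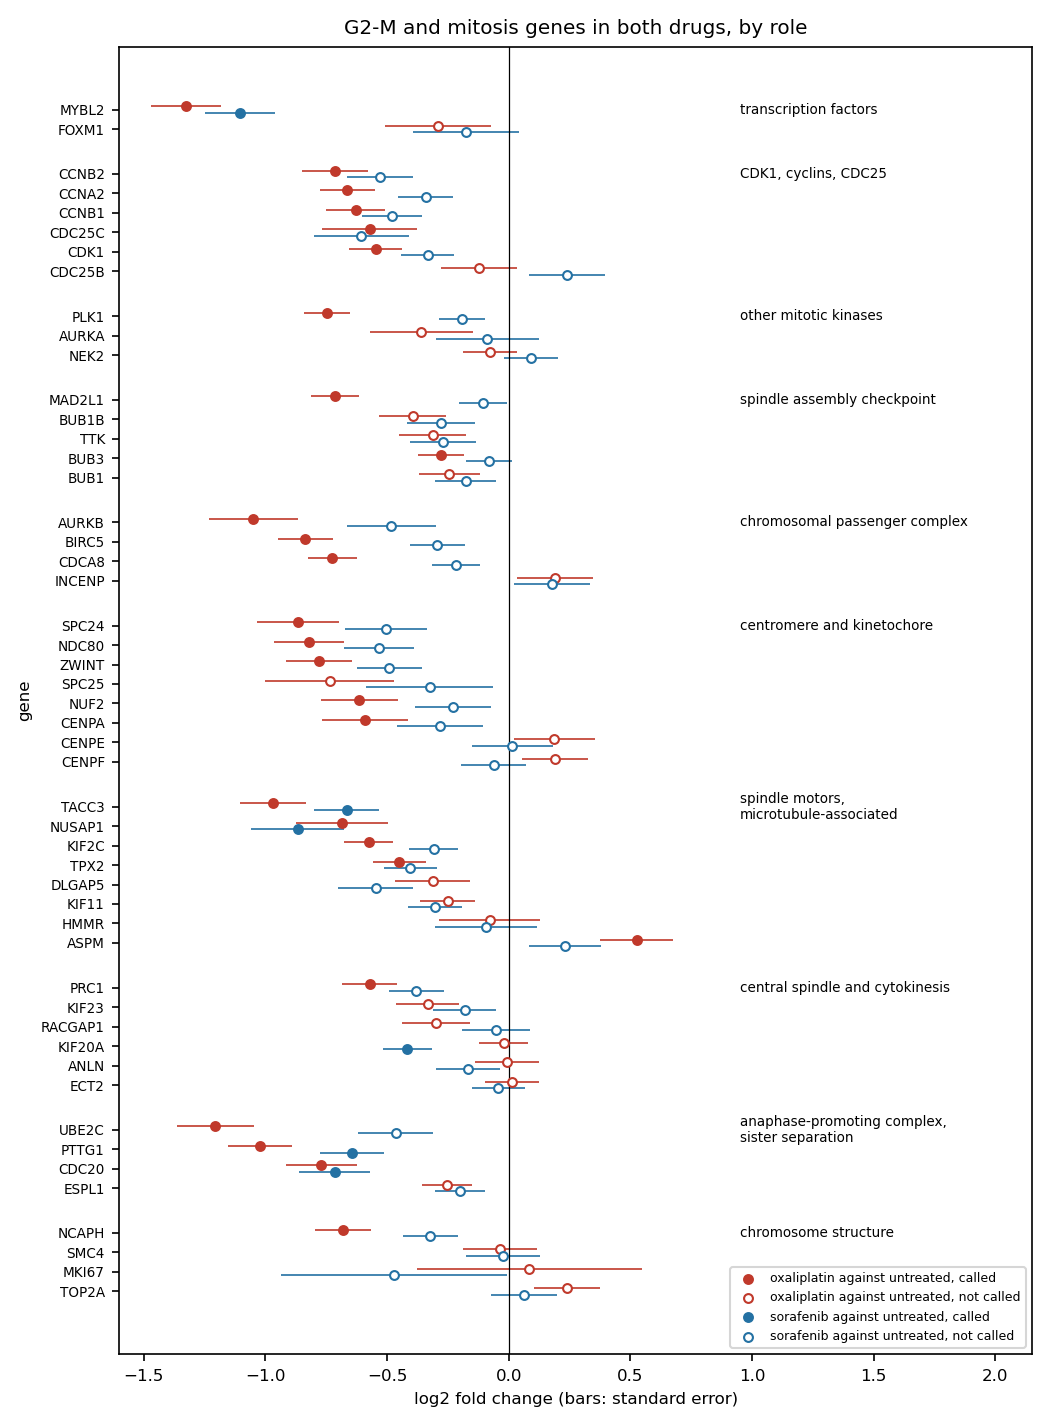
Log2 fold change (horizontal axis) of each of the 50 genes, grouped by role, for oxaliplatin and sorafenib against untreated libraries, with bars of 1 standard error and filled points for genes that passed the test. The oxaliplatin points reach from -1.33 at MYBL2 to 0.53 at ASPM, and most lie below 0 in both comparisons.

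The transcription factor genes differed from each other. MYBL2 (ENSG00000101057, chr20:43667019-43716495) stood at 338, 429 and 439 CPM in untreated libraries 1 to 3, at 140.0, 156 and 185 CPM in oxaliplatin and at 206, 178 and 177 CPM in sorafenib. Every drug library lay below every untreated one. The log2 fold change was -1.33 ± 0.14 (SE, adjusted p = 0.00103) with oxaliplatin, the most negative of the 50, and -1.10 ± 0.14 (adjusted p = 0.00476) with sorafenib. FOXM1 (ENSG00000111206, chr12:2857680-2877174), whose product works with B-MYB at late cell cycle promoters, stood at 55.2, 68.7 and 82.7 CPM untreated, 44.0, 63.4 and 61.5 CPM in oxaliplatin and 49.3, 54.7 and 79.0 CPM in sorafenib. The 3 groups of FOXM1 overlapped, with log2 fold changes of -0.29 ± 0.22 (adjusted p = 0.333) and -0.18 ± 0.22 (adjusted p = 0.655). FOXM1 shares 15.9% of its exon bases with the opposite-strand gene ITFG2, and the strand setting of the counting is not given in the sources used here. This limit also holds for SMC4 (25.6%, IFT80 and TRIM59) and PLK1 (12.5%, AC008870.3 and ERN2), and at smaller shares for others of the 50.

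Of the 6 genes for CDK1, its cyclins and the CDC25 phosphatases that activate it, 5 fell with oxaliplatin. CDK1 (chr10:60778331-60794852) went from 99.6, 118 and 114 CPM to 72.5, 83.5 and 71.0 CPM, a log2 fold change of -0.55 ± 0.11 (adjusted p = 0.00624). CCNB1, which encodes cyclin B1 (chr5:69167135-69178245), went from 144, 185 and 184 CPM to 101, 122 and 109 CPM, a log2 fold change of -0.63 ± 0.12 (adjusted p = 0.00585). In each of these genes the highest oxaliplatin value lay below the lowest untreated one. CCNB2 (chr15:59105126-59125045) had 67.5, 83.8 and 84.4 CPM untreated and 45.6, 52.9 and 45.0 CPM in oxaliplatin, and CCNA2, the cyclin A2 gene (chr4:121816444-121823933), had 73.6, 83.5 and 93.0 CPM and 54.5, 55.0 and 48.4 CPM. Their log2 fold changes were -0.72 ± 0.14 and -0.66 ± 0.11 (adjusted p = 0.00533 and 0.00364). CDC25C, at 16.3 to 20.2 CPM untreated and 10.0 to 14.4 CPM in oxaliplatin, had -0.57 ± 0.20 (adjusted p = 0.0486). That call ended without any of 6 libraries, untreated 2 and 3, oxaliplatin 1, 2 and 3 and sorafenib 1, at adjusted p-values of 0.0518 to 0.144. CDC25B had -0.12 ± 0.16 (adjusted p = 0.576) and overlapped between groups.

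In sorafenib none of these 6 passed the test. CDK1 stood at 85.8, 85.8 and 91.7 CPM, CCNB1 at 125, 118 and 124 CPM, CCNB2 at 62.1, 49.8 and 51.6 CPM and CCNA2 at 64.0, 67.0 and 66.3 CPM. All 3 sorafenib values lay below the untreated ones in each of the 4 genes, with log2 fold changes of -0.33 ± 0.11, -0.48 ± 0.12, -0.53 ± 0.14 and -0.34 ± 0.11 and adjusted p-values of 0.0966, 0.0523, 0.0533 and 0.0990. CDC25B was the one gene of the group with a positive value, 0.24 ± 0.16 (adjusted p = 0.368).

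Among the other mitotic kinases PLK1 fell with oxaliplatin, and AURKA and NEK2 did not pass the test. PLK1 (ENSG00000166851, chr16:23677656-23690367), the Polo-like kinase of spindle assembly, stood at 121, 119 and 115 CPM untreated, 71.5, 74.6 and 65.4 CPM in oxaliplatin and 109, 103 and 98.8 CPM in sorafenib. Its log2 fold change was -0.75 ± 0.10 (adjusted p = 0.00148) with oxaliplatin and -0.19 ± 0.10 (adjusted p = 0.232) with sorafenib. The libraries of PLK1 lay close together within groups, and its oxaliplatin values were below all 6 others. AURKA, the kinase of the spindle poles (chr20:56369389-56392337), had 61.0, 65.0 and 34.5 CPM untreated, so that untreated 3 lay below all 3 oxaliplatin values of 37.0, 40.8 and 47.2 CPM. Its log2 fold change was -0.36 ± 0.21 (adjusted p = 0.216). NEK2, a centrosomal kinase gene, stayed between 50.4 and 62.8 CPM in all 9 libraries.

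The chromosomal passenger complex, which corrects wrong attachments of chromosomes, had 3 of its 4 genes lower with oxaliplatin. AURKB, its kinase (chr17:8204733-8210600), stood at 53.4, 77.8 and 71.5 CPM untreated and 30.3, 27.9 and 39.8 CPM in oxaliplatin, a log2 fold change of -1.05 ± 0.18 (adjusted p = 0.00396). BIRC5, the survivin gene (chr17:78214186-78225636), stood at 54.1, 52.2 and 57.6 CPM and at 30.2, 29.5 and 32.1 CPM, with -0.84 ± 0.11 (adjusted p = 0.00174). CDCA8, the borealin gene (chr1:37692481-37709719), stood at 77.8, 86.4 and 91.8 CPM and at 50.7, 52.1 and 52.1 CPM, with -0.73 ± 0.10 (adjusted p = 0.00174). INCENP, the scaffold of the complex, did not pass the test at 0.19 ± 0.16 (adjusted p = 0.376). In sorafenib AURKB had 55.5, 43.3 and 46.4 CPM, BIRC5 49.8, 44.1 and 39.8 CPM and CDCA8 76.5, 70.9 and 72.7 CPM. These lay between the other groups or overlapped the untreated one, at adjusted p-values of 0.134, 0.143 and 0.200.

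Of the 5 spindle checkpoint genes, MAD2L1 and BUB3 fell with oxaliplatin. MAD2L1, which encodes the checkpoint protein MAD2 (chr4:120055623-120066858), stood at 66.5, 70.7 and 72.5 CPM untreated, 43.3, 45.1 and 39.5 CPM in oxaliplatin and 65.5, 63.1 and 66.1 CPM in sorafenib. Its log2 fold changes were -0.71 ± 0.10 (adjusted p = 0.00177) and -0.11 ± 0.10 (adjusted p = 0.526). BUB3 (chr10:123154402-123170467), a partner of the checkpoint kinases, stood at 194, 213 and 220.4 CPM, at 173, 179 and 165 CPM and at 209, 191 and 193 CPM. The change of BUB3 with oxaliplatin was small, -0.28 ± 0.09 (adjusted p = 0.0464). It was lost without any of 7 libraries, that is without untreated 2 or 3, oxaliplatin 1, 2 or 3 or sorafenib 2 or 3, at adjusted p-values of 0.0658 to 0.143. BUB1, a checkpoint kinase gene (chr2:110637528-110678063), had 88.3, 85.4 and 99.0 CPM untreated and 79.9, 83.7 and 66.6 CPM in oxaliplatin. BUB1, BUB1B and TTK each lay lower in all 3 oxaliplatin libraries, at -0.24 ± 0.13, -0.40 ± 0.14 and -0.31 ± 0.14, with adjusted p-values of 0.159, 0.0526 and 0.106.

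Of the 8 centromere and kinetochore genes, 5 fell with oxaliplatin. NDC80, NUF2 and SPC24, subunits of the complex that grips microtubules, had log2 fold changes of -0.82 ± 0.14, -0.61 ± 0.16 and -0.87 ± 0.17 (adjusted p = 0.00400, 0.0165 and 0.00599). ZWINT, a kinetochore protein gene, had -0.78 ± 0.14 (adjusted p = 0.00384), and CENPA, the centromeric histone gene, had -0.59 ± 0.18 (adjusted p = 0.0302). The call of NUF2 ended without untreated 2 or 3 (adjusted p = 0.0567 and 0.0584), and that of CENPA without untreated 2 or 3 or oxaliplatin 1 or 2 (0.0586 to 0.111). SPC25, at 1.19 to 2.55 CPM, had -0.74 ± 0.26 (adjusted p = 0.0577), with all 3 oxaliplatin libraries below the untreated ones.

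The other pair of kinetochore genes, CENPE and CENPF, lay on the other side of 0. CENPE, a kinesin that moves chromosomes to the spindle equator (chr4:103105349-103198445), stood at 31.0, 33.0 and 40.0 CPM untreated, 42.7, 45.2 and 30.5 CPM in oxaliplatin and 31.6, 38.1 and 35.4 CPM in sorafenib. CENPF, a large coiled-coil protein gene (chr1:214603195-214664571), stood at 425, 371 and 442 CPM, at 489, 489 and 433 CPM and at 323, 446 and 416 CPM. The groups overlapped in both genes, and with oxaliplatin their log2 fold changes were 0.19 ± 0.17 (adjusted p = 0.419) and 0.19 ± 0.13 (adjusted p = 0.308).

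Spindle motors and microtubule-associated proteins were divided, with 4 of 8 lower and 1 higher in oxaliplatin. TACC3, which crosslinks spindle microtubules (chr4:1712891-1745176), stood at 79.1, 109 and 93.1 CPM untreated, 46.3, 48.2 and 48.9 CPM in oxaliplatin and 66.3, 56.7 and 54.0 CPM in sorafenib. It fell by 0.97 ± 0.14 on the log2 scale (adjusted p = 0.00180). KIF2C, a microtubule-shortening kinesin gene, had -0.58 ± 0.10 (adjusted p = 0.00399), and TPX2, an activator of Aurora A, had -0.45 ± 0.11 (adjusted p = 0.0130). NUSAP1, a spindle protein gene (chr15:41320794-41381050), stood at 86.7, 142 and 143 CPM untreated, 67.2, 74.0 and 90.2 CPM in oxaliplatin and 71.0, 69.8 and 63.1 CPM in sorafenib, with -0.69 ± 0.19 (adjusted p = 0.0228) in oxaliplatin. Untreated 1 lay below oxaliplatin 3 in NUSAP1, and 62.2% of its exon bases also belong to AC087721.2, transcribed in the same direction, which leaves uncertain which gene its counts came from. Leaving out untreated 2 or 3 or oxaliplatin 1 or 2 ended the call of NUSAP1 (adjusted p = 0.0701 to 0.0858), and leaving out untreated 3 ended that of TPX2 (adjusted p = 0.0533).

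ASPM was the gene that rose with oxaliplatin. ASPM (ENSG00000066279, chr1:197084127-197146694), a large protein of the spindle poles, stood at 149, 128 and 148 CPM untreated, 212, 224 and 177 CPM in oxaliplatin and 134, 193 and 173 CPM in sorafenib. The oxaliplatin libraries lay above the untreated ones, with 0.53 ± 0.15 on the log2 scale (adjusted p = 0.0246), and the sorafenib libraries overlapped both groups at 0.23 ± 0.15 (adjusted p = 0.362). Without untreated 2 or 3 or oxaliplatin 1 or 2 the call of ASPM ended (adjusted p = 0.0566 to 0.0920), and with an offset for GC content and transcript length its value was -0.04 ± 0.07 (adjusted p = 0.723). KIF11, HMMR and DLGAP5, also spindle genes, did not pass the test in oxaliplatin, at -0.25, -0.08 and -0.31.

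Genes of the anaphase-promoting complex and of sister separation had some of the most negative values. UBE2C, the ubiquitin-conjugating enzyme of the complex (chr20:45812576-45816957), stood at 128, 177 and 177 CPM untreated, 72.0, 76.2 and 60.9 CPM in oxaliplatin and 133, 111 and 105 CPM in sorafenib. It fell by 1.21 ± 0.16 on the log2 scale (adjusted p = 0.00159) with oxaliplatin. CDC20, the activator of the complex (chr1:43358981-43363203), stood at 251, 341 and 314 CPM, at 158, 170.2 and 203 CPM and at 206, 175 and 171 CPM, with -0.77 ± 0.15 (adjusted p = 0.00525) in oxaliplatin. PTTG1, the securin gene (chr5:160421855-160428739), stood at 91.8, 111 and 103 CPM, at 51.2, 56.6 and 42.7 CPM and at 65.5, 60.2 and 70.0 CPM, with -1.02 ± 0.13 (adjusted p = 0.00149) in oxaliplatin. In these 3 genes no oxaliplatin library reached the lowest untreated one. ESPL1, the separase gene whose product securin holds in check, did not pass the test at -0.25 ± 0.10 (adjusted p = 0.0854), although its 3 oxaliplatin libraries (up to 51.8 CPM) lay below the untreated ones (from 57.2 CPM).

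Of the 6 central spindle and cytokinesis genes PRC1, a microtubule bundler, fell with oxaliplatin at -0.57 ± 0.11 (adjusted p = 0.00624). That is 1 of 6, close to the 15.5% of all genes tested that were called lower. The limit given for NUSAP1 also holds for PRC1, since 57.6% of its exon bases lie within AC068831.7 in the same direction. KIF20A, KIF23, ECT2, ANLN and RACGAP1, which position and drive the cleavage furrow, had values from -0.33 to 0.01 and did not pass the test. Of 4 genes of chromosome structure the condensin gene NCAPH fell, at -0.68 ± 0.11 (adjusted p = 0.00337), and SMC4, another condensin subunit, had -0.04 ± 0.15 (adjusted p = 0.877). TOP2A, which untangles sister DNA (chr17:40388525-40417896), stood at 521, 439 and 529.6 CPM untreated, 608, 644 and 506 CPM in oxaliplatin and 448, 539 and 566 CPM in sorafenib. The 3 groups of TOP2A overlapped, at 0.24 ± 0.14 (adjusted p = 0.199) and 0.06 ± 0.14 (adjusted p = 0.817).

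MKI67 was uneven within every group. MKI67 (ENSG00000148773, chr10:128096659-128126423) stood at 203, 102 and 206 CPM in untreated libraries 1 to 3, at 251, 87.4 and 204 CPM in oxaliplatin and at 187, 86.1 and 96.0 CPM in sorafenib. Untreated 2, oxaliplatin 2 and sorafenib 2 and 3 were low, and the other 5 libraries were high. The highest library of a group was 2.02, 2.87 and 2.17 times the lowest in untreated, oxaliplatin and sorafenib. The log2 fold changes were therefore imprecise, 0.08 ± 0.46 (adjusted p = 0.907) with oxaliplatin and -0.47 ± 0.47 (adjusted p = 0.565) with sorafenib. These values do not show that MKI67 was unchanged.

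The standard deviation of log2 CPM within groups was 0.669 for MKI67, the largest of the 50 genes, followed by 0.315 for FOXM1 and 0.312 for AURKA, against a median of 0.170 over the 50. Among 2288 tested genes within 1 log2 unit of the level of MKI67, 37 (1.62%) had a larger one. MYBL2, at 0.182, and PLK1, at 0.073, did not share the pattern of MKI67. With a level per kilobase of transcript, which lets genes be compared, MKI67 had 13.4 ± 4.65 CPM per kb in untreated libraries (mean ± SD, n = 3), the 42nd of the 50. UBE2C (176 ± 30.6), CDC20 (169.9 ± 25.9) and MYBL2 (149 ± 20.6) stood highest, and CENPE (4.03 ± 0.553) and SPC25 (1.60 ± 0.318) lowest. The spreads of the 3 highest overlapped, and the plot of levels by library shows the scatter of MKI67 beside the closer libraries of PLK1.

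**Figure D2:**
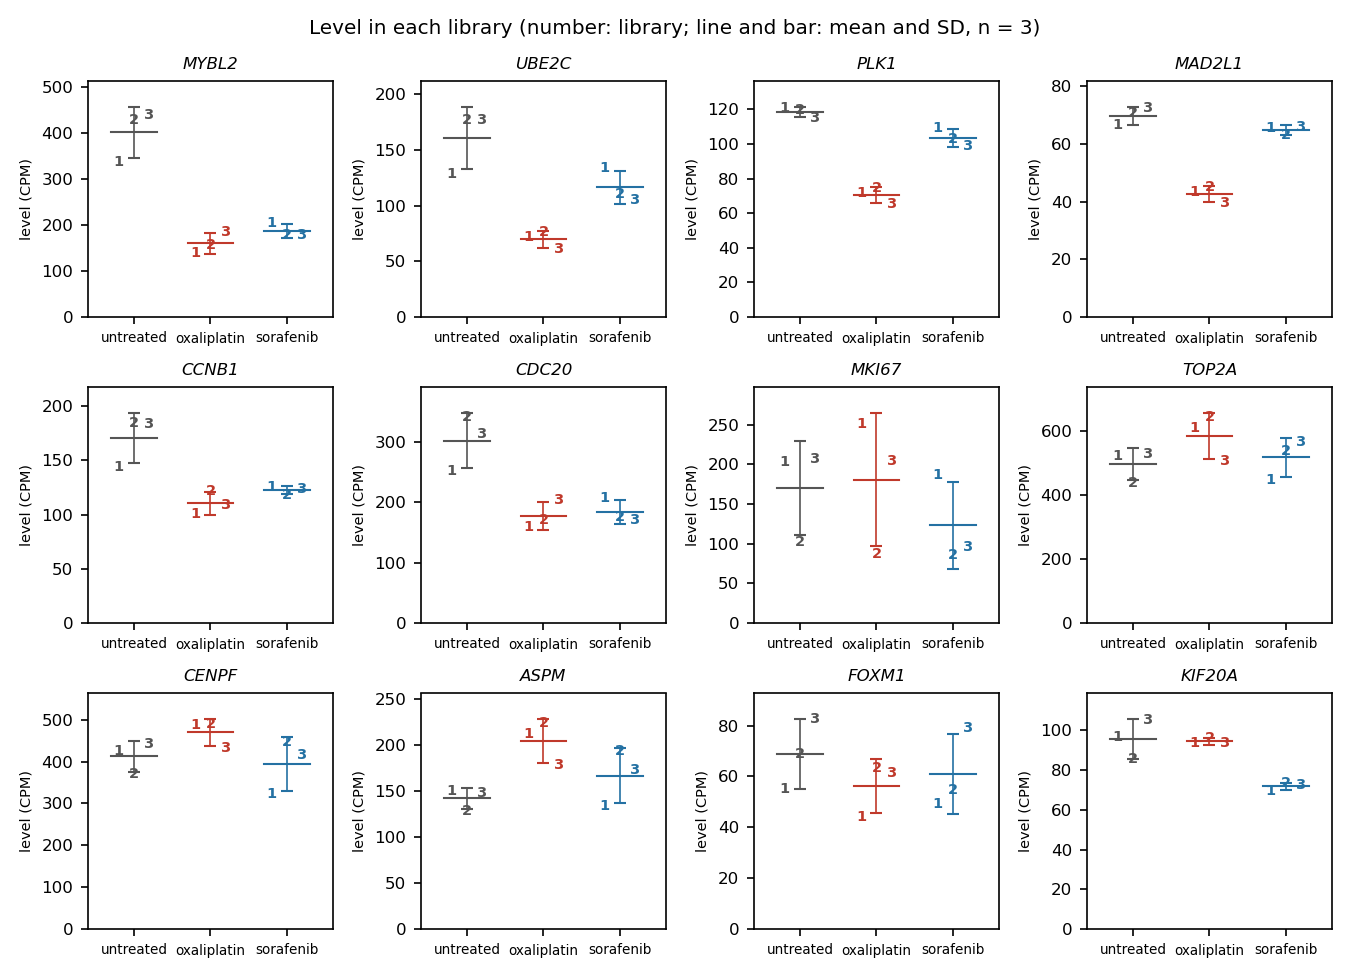
Level in CPM (vertical axis, from 0) of selected genes in each of the 9 libraries, with numbers for the libraries and a line and bar for the mean and SD of 3. MKI67 ranges from 86.1 to 251 CPM with low and high libraries in every group, whereas the oxaliplatin libraries of PLK1 (65.4 to 74.6 CPM) lie below all others.

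Of the 50 genes, 19 fell in the shortest of 3 equal bins of the 12397 tested protein-coding genes by transcript length (192 to 2540 bases). In that bin 16 of 19 fell with oxaliplatin and the median was -0.73, against -0.34 for all genes of the bin, of which 33.1% were called lower. In the middle bin (2541 to 4469 bases) 8 of 20 fell, with a median of -0.32 against 0.0051 for all its genes, of which 13.1% were called lower. In the longest bin, from 4470 bases, 2 of 11 fell (MAD2L1 and BUB3) and 1 rose (ASPM), with a median of -0.0076 against 0.36 for all its genes, of which 5.21% were called lower and 34.8% higher. The other 8 of that bin were MKI67, TOP2A, CENPE, CENPF, SMC4, ANLN, KIF11 and ESPL1. Across the 50 genes Spearman's rho between length and the oxaliplatin log2 fold change was 0.752, and across the 12397 genes it was 0.497, as descriptions over genes that share the same libraries. With GC content of the transcript the values were -0.448 and -0.293.

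Against genes of like length the mitotic genes lay lower throughout the range. With the protein-coding genes in 10 equal bins by length, the median oxaliplatin value rose from -0.53 in the shortest bin to 0.57 in the longest, which starts at 7588 bases. Of the 50 genes, 46 lay below the median of their own bin, by a median of 0.41 on the log2 scale, and NEK2, INCENP, TOP2A and KIF20A lay above it. MKI67 lay 0.48 below its bin, CENPF and CENPE 0.38 below it each, ASPM 0.04 below it, PLK1 0.52 below it and MYBL2 1.17 below it. The fold change of MKI67 had a standard error of 0.46, against 0.10 for PLK1, so the distance of MKI67 was imprecise. With sorafenib 46 of the 50 again lay below, by a median of 0.27. Both comparisons use the same untreated libraries. The plot of fold change against length shows the points under the line of medians.

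**Figure D3:**
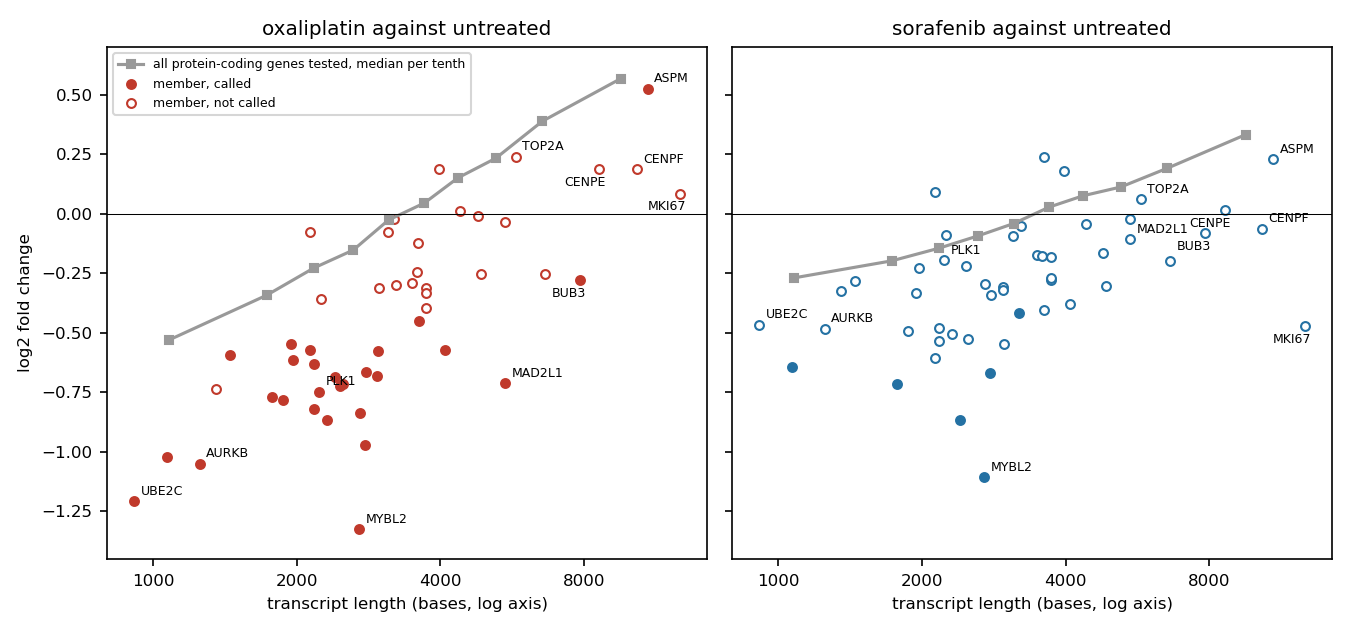
Log2 fold change of the 50 genes (circles, filled where called) against transcript length in bases on a log axis, for oxaliplatin (left) and sorafenib (right) against untreated, with the median of all tested protein-coding genes in 10 bins by length (grey squares). The grey line rises from -0.53 to 0.57 on the left and from -0.27 to 0.33 on the right, and 46 of the 50 circles lie below the median of their bin in each panel.

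When GC content and transcript length entered the fit as an offset for each library, 35 of the 50 genes were called lower with oxaliplatin and 0 higher, where 28.1% of 16005 genes were called in either direction. CENPF then had -0.37 ± 0.08 (adjusted p = 0.00942), SMC4 -0.36 (adjusted p = 0.0254), KIF11 -0.54 (adjusted p = 0.00223), ESPL1 -0.53 (adjusted p = 0.00377), ANLN -0.28 (adjusted p = 0.0348) and ECT2 -0.24 (adjusted p = 0.0229). MYBL2 had -1.13 (adjusted p = 0.00112) and PLK1 -0.49 (adjusted p = 0.00804). TOP2A had -0.10 (adjusted p = 0.334), CENPE -0.32 (adjusted p = 0.0717) and MKI67 -0.52 ± 0.54 (adjusted p = 0.509), so the sign of these 3 turned but none passed the test. The standard error of MKI67 was no smaller with the offset than without it. CDC25C and CENPA were no longer called, at -0.49 and -0.41 (adjusted p = 0.0637 and 0.0879). The length is that of the longest basic coding transcript, which for BUB3 is 7828 bases where the median of its 3 coding transcripts is 1361. With the median length in its place BUB3 had -0.23 (adjusted p = 0.0517) instead of -0.76 (adjusted p = 0.00409), and CENPF -0.23 (adjusted p = 0.0533).

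**Figure D4:**
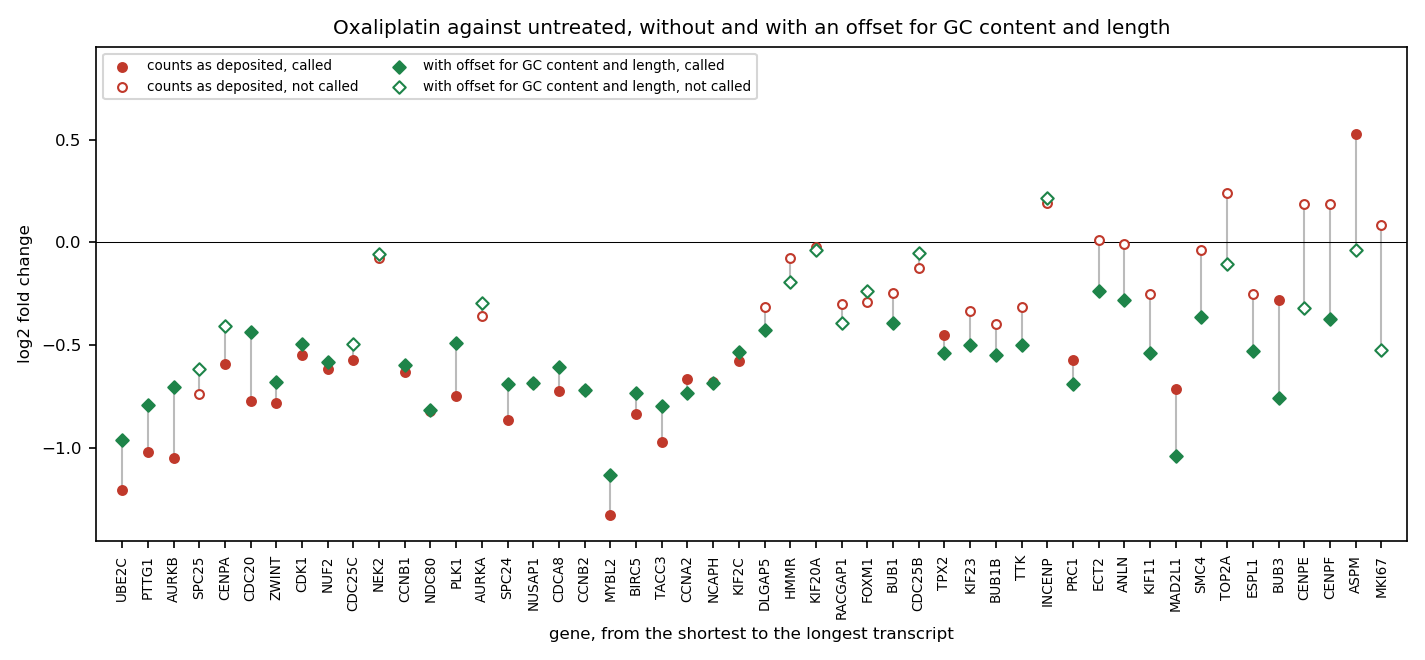
Log2 fold change of the 50 genes with oxaliplatin against untreated, from the counts as deposited (circles) and with an offset for GC content and transcript length (diamonds), filled where called, with genes ordered from the shortest to the longest transcript. Genes on the right, such as CENPF and ASPM, move down with the offset, and UBE2C and AURKB on the left move up.

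The median log2 deviation of genes in the longest of the 10 bins minus that of the shortest was -0.33, -0.76 and -0.52 in untreated libraries 1 to 3, 0.65, 0.58 and 0.34 in oxaliplatin and -0.38, 0.29 and 0.24 in sorafenib. Sorafenib 1 therefore stood with the untreated libraries. MKI67 deviated from its mean over the 9 libraries by 0.47, -0.51 and 0.50, by 0.79, -0.74 and 0.48 and by 0.36, -0.76 and -0.60. Its low libraries, untreated 2, oxaliplatin 2 and sorafenib 2 and 3, include the lowest value of the length measure and some of its higher ones. The part of transcript length in the scatter of MKI67 was not tested. The median deviation of the 50 genes was 0.16, 0.29 and 0.38 in untreated, -0.26, -0.16 and -0.25 in oxaliplatin and -0.08, -0.02 and 0.02 in sorafenib, with each drug library below each untreated one.

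**Figure D5:**
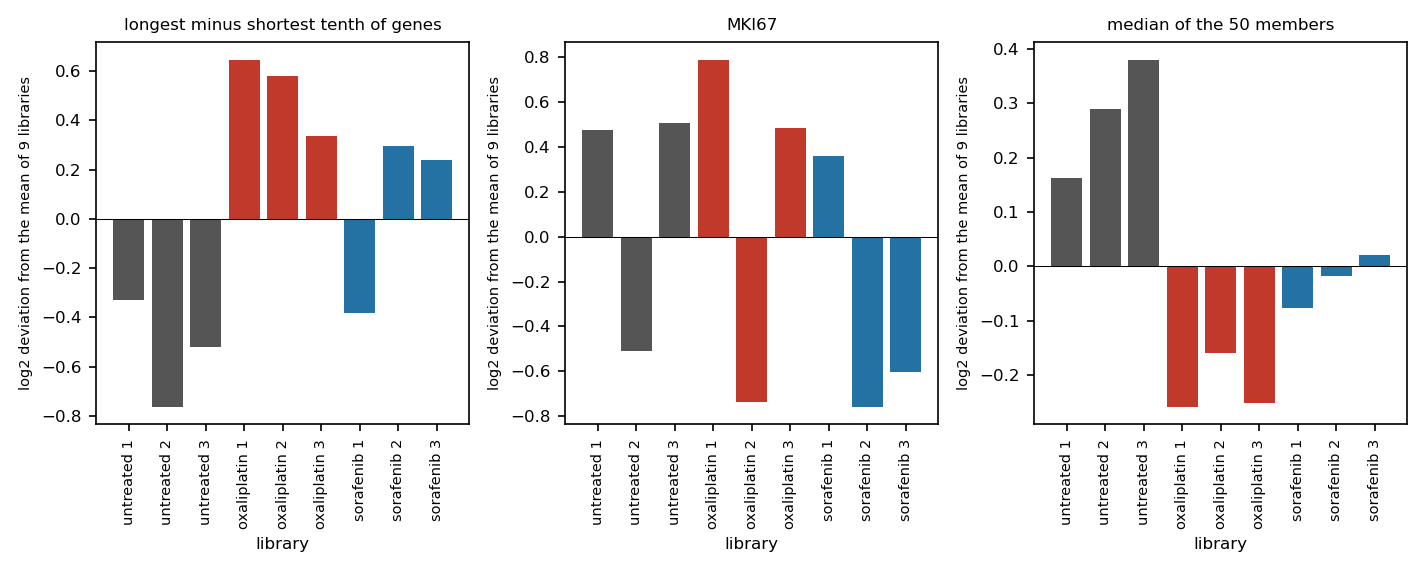
Log2 deviation of each of the 9 libraries from their mean (vertical axis) for the longest minus the shortest bin of genes (left), for MKI67 (middle) and for the median of the 50 genes (right), with bars from 0 coloured by group. The length measure is negative in the untreated libraries and in sorafenib 1, whereas MKI67 is low in untreated 2, oxaliplatin 2 and sorafenib 2 and 3.

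With sorafenib fewer of the 50 genes passed the test. MYBL2, NUSAP1, TACC3, KIF20A, CDC20 and PTTG1 fell, 6 in all, and 0 rose, where 1.97% of all genes tested were called lower, 2.82% higher and 4.8% in all. The log2 fold change was negative in 44 of the 50, with a median of -0.29, where the median of all genes tested lay at 0 to 2 decimals. All 3 sorafenib libraries lay below the untreated ones for 27 of the 50 genes, against 14.3% of all genes tested. At an unadjusted p under 0.05 there were 23, all lower, where 25.4% of all genes tested passed in either direction. DESeq2 called 14 of the 50, and 11.1% of all genes. Beside MYBL2, the values were -0.87 ± 0.19 for NUSAP1, -0.67 ± 0.13 for TACC3, -0.42 ± 0.10 for KIF20A, -0.72 ± 0.15 for CDC20 and -0.64 ± 0.13 for PTTG1, with adjusted p-values of 0.0359, 0.0277, 0.0479, 0.0281 and 0.0279. KIF20A, a kinesin of the central spindle (chr5:138178719-138187723), stood at 96.6, 85.4 and 105 CPM untreated and at 69.7, 73.3 and 72.3 CPM in sorafenib.

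Of these 6 calls, that of MYBL2 was kept in every fit that left out 1 library, with adjusted p-values up to 0.0347. The calls of TACC3 and CDC20 ended without untreated 2 or 3 or sorafenib 2 or 3 (adjusted p = 0.0858 to 0.120), as did those of PTTG1 (without these or oxaliplatin 1, 0.0511 to 0.122) and NUSAP1 (without these or oxaliplatin 1 or 2, 0.0534 to 0.137). The call of KIF20A ended without any of the 9 libraries (0.0532 to 0.161). The count of members called was 1 without each of untreated 2, untreated 3, sorafenib 2 and sorafenib 3. It was 3 without oxaliplatin 1 and 11 without untreated 1. Of all genes tested 0.898%, 0.922%, 0.838% and 0.681% were called without untreated 2, untreated 3, sorafenib 2 and sorafenib 3. The share was 2.34% without oxaliplatin 1 and 9.86% without untreated 1, so it rose and fell with the count of members. With the offset for GC content and length 14 members were called lower and 0 higher, against 6.57% of genes called in all. In the 3 length bins, from short to long, 3, 3 and 0 of the genes were called lower with sorafenib, with medians of -0.48, -0.29 and -0.08 against -0.20, -0.0012 and 0.19 for all genes of the bins. Of all genes of these bins 3.46%, 2.44% and 1.28% were called lower.

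The drugs were then set against each other, which tests whether their effects differ. PLK1, MAD2L1, BIRC5, CDCA8 and UBE2C were lower in oxaliplatin than in sorafenib, and KIF20A was higher, where 5.07% of all genes tested were called lower, 5.2% higher and 10.3% in all. Taken in either direction the 6 calls are close to the share over all genes and by themselves no result about the 50 as a group. The log2 difference was negative in 36 of the 50 and positive in 14. Its median was -0.18, against -0.0056 over all genes tested. The log2 differences were -0.55 ± 0.10 for PLK1, -0.61 ± 0.10 for MAD2L1, -0.54 ± 0.11 for BIRC5, -0.51 ± 0.10 for CDCA8, -0.74 ± 0.16 for UBE2C and 0.40 ± 0.10 for KIF20A. Their adjusted p-values were 0.00774, 0.00598, 0.0179, 0.0132, 0.0180 and 0.0374. In each of the 6 genes the 3 oxaliplatin libraries did not overlap the 3 sorafenib ones, which held in the lower direction for 18 of the 50 genes (17.6% of all genes tested) and in the higher direction for 1 (17.3%). The calls of PLK1 and MAD2L1 were kept without each library in turn. Those of BIRC5, CDCA8 and UBE2C ended without oxaliplatin 1 (adjusted p = 0.0734, 0.0630 and 0.0622), and also without oxaliplatin 2 for BIRC5 (0.0706) and sorafenib 1 for UBE2C (0.0580). The call of KIF20A ended without any 1 of the 6 drug libraries (0.0510 to 0.110). For MYBL2 the difference was -0.22 ± 0.14 (adjusted p = 0.340) and for MKI67 0.56 ± 0.47 (adjusted p = 0.478), which does not show that the drugs acted alike on them. Without oxaliplatin 1 the count was 2, where 3.47% of all genes tested were called.

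Of a further 62 genes of mitosis, 30 fell and 1 rose with oxaliplatin, where 15.5% of all genes tested were called lower and 16.2% higher, with a median log2 fold change of -0.37 against 0.02 over all genes tested. CENPH, a kinetochore gene (chr5:69189574-69210357), went from 37.9 ± 3.63 to 21.3 ± 0.406 CPM (mean ± SD, n = 3, adjusted p = 0.00166), and CKS2, a small CDK-binding protein gene (chr9:89311195-89316703), from 129 ± 15.5 to 67.9 ± 2.10 CPM (adjusted p = 0.00175). The kinesin gene KIF22 and the cohesin protector gene CDCA5 had log2 fold changes of -0.86 ± 0.12 and -1.03 ± 0.15 (adjusted p = 0.00208 and 0.00221). CKAP5, which encodes a long microtubule polymerase, rose by 0.47 ± 0.11 (adjusted p = 0.0125), but not without untreated 3 or oxaliplatin 1 (adjusted p = 0.0513 and 0.0527). With the offset for GC content and length its value was 0.055 (adjusted p = 0.639), and with length alone 0.087 (adjusted p = 0.502). With library size alone as the scaling 25 of the 62 fell and 4 rose, where 1794 of the 16159 genes tested were called lower and 3395 higher. With sorafenib 7 of the 62 fell and 0 rose, with a median of -0.28, where 1.97% of all genes tested were called lower. They included CKS2, KIF22 and CDCA5, at -0.58 ± 0.13, -0.64 ± 0.12 and -0.75 ± 0.15 (adjusted p = 0.0354, 0.0239 and 0.0278). The count with sorafenib was 0 without untreated 2, untreated 3, sorafenib 2 or sorafenib 3, 2 without oxaliplatin 1 or 2 and 12 without untreated 1, and the adjusted p-values of these 3 genes without untreated 2 were 0.132, 0.0968 and 0.0975. Of all genes tested, 0.681% to 0.922% were called in the first 4 of these fits. The share was 2.34% and 2.7% without oxaliplatin 1 and 2, and 9.86% without untreated 1.

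Of 17 genes of the anaphase-promoting complex and its partners, 6 fell and 0 rose with oxaliplatin, with a median of -0.34, where 15.5% of all genes tested were called lower and 16.2% higher. ANAPC15, a subunit that helps to release the checkpoint (chr11:72106378-72112780), had 23.8, 20.7 and 29.2 CPM untreated, 10.4, 9.55 and 9.18 CPM in oxaliplatin and 13.6, 13.7 and 10.3 CPM in sorafenib. It fell in both, by 1.34 ± 0.17 and by 0.97 ± 0.17 on the log2 scale (adjusted p = 0.00156 and 0.0184). The second call ended without untreated 3, sorafenib 2 or sorafenib 3 (adjusted p = 0.0612 to 0.0821). ANAPC7, ANAPC10 and ANAPC11, other subunits, had -0.51, -0.74 and -0.85 with oxaliplatin (adjusted p = 0.00630, 0.00854 and 0.0131). Without oxaliplatin 1 or 2 the adjusted p of ANAPC11 was 0.0546 and 0.0503, and with the offset for GC content and length its value was -0.48 (adjusted p = 0.102). The count of 6 became 3 without oxaliplatin 1, where 17.7% of all genes tested were called. With sorafenib 1 of the 17 fell and 0 rose, which is not far from the 4.8% of all genes called.

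Of 15 genes of the DREAM and MuvB complexes, which regulate the programme, 5 rose and 0 fell with oxaliplatin, where 16.2% of all genes tested were called higher and 15.5% lower, and their median was -0.06, or 0.06 with library size alone as the scaling. Taken in either direction the 5 calls are not far from the 31.7% of all genes tested that were called. With RLE size factors 5 rose and 2 fell, where 31.8% of all genes tested were called. With the offset for GC content and length 3 rose and 4 fell, where 28.1% were called. The count was 3 without oxaliplatin 1 or oxaliplatin 2, where 17.7% and 20% of all genes tested were called. RBL2, the gene of the pocket protein p130 (chr16:53433977-53491648), stood at 72.8, 59.0 and 61.6 CPM untreated, 119, 123 and 111 CPM in oxaliplatin and 74.7, 96.8 and 89.2 CPM in sorafenib. Its oxaliplatin values were above all others, a log2 fold change of 0.87 ± 0.13 (adjusted p = 0.00218), and with sorafenib it was at 0.43 ± 0.13 (adjusted p = 0.0751). E2F5, a repressor E2F gene, had 0.63 ± 0.11 (adjusted p = 0.00419), NFYA, a subunit of the CCAAT-binding factor, 0.61 ± 0.11 (adjusted p = 0.00453) and MYBL1, a relative of MYBL2, 0.71 ± 0.20 (adjusted p = 0.0232). The call of MYBL1 ended without oxaliplatin 1 or 2 (adjusted p = 0.0757 and 0.0559) and with the offset for GC content and length (0.104). The MuvB core genes LIN9 and LIN54 had -0.24 ± 0.12 (adjusted p = 0.147) and -0.06 ± 0.15 (adjusted p = 0.780). With the offset they were called lower, at -0.40 and -0.43 (adjusted p = 0.0129 and 0.0226). With sorafenib E2F5 rose, at 0.47 ± 0.11 (adjusted p = 0.0460), a call that ended without any of 8 libraries, all but oxaliplatin 3 (0.0524 to 0.154).

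Among 12 G2 checkpoint genes 6 fell and 4 rose with oxaliplatin, where 15.5% of all genes tested were called lower and 16.2% higher. PKMYT1, which encodes the kinase that inhibits CDK1 at the Golgi and endoplasmic reticulum (chr16:2968024-2980479), stood at 50.6, 51.0 and 50.5 CPM untreated, 20.7, 21.8 and 24.1 CPM in oxaliplatin and 30.4, 26.6 and 28.9 CPM in sorafenib. It fell in both, by 1.19 ± 0.11 and by 0.82 ± 0.11 on the log2 scale (adjusted p = 0.000681 and 0.00519). The 3 groups of PKMYT1 did not overlap. GADD45A, a growth arrest gene, fell from 161, 213 and 214 CPM to 92.5, 89.7 and 111 CPM with oxaliplatin (adjusted p = 0.00177) and had a log2 fold change of 0.10 ± 0.14 with sorafenib (adjusted p = 0.684). CDKN1A, the p21 gene, stood at 63.9, 78.4 and 60.8 CPM untreated and 233, 251 and 113 CPM in oxaliplatin, with oxaliplatin 3 nearest the untreated libraries (1.56 ± 0.26, adjusted p = 0.00405). ATM, the damage kinase gene, had 18.5, 9.29 and 12.1 CPM untreated and 55.5, 73.3 and 44.6 CPM in oxaliplatin (2.12 ± 0.44, adjusted p = 0.00926), and in sorafenib it had 20.3, 62.5 and 51.7 CPM, with sorafenib 1 near the untreated libraries. WEE1, whose kinase also inhibits CDK1, had 0.95 ± 0.26 (adjusted p = 0.0225), which ended without untreated 2 or 3 or oxaliplatin 1 or 2 (0.0557 to 0.0775). Of the 10 calls, 5 were left without untreated 2 or without oxaliplatin 2, and 4 without oxaliplatin 1. In these fits 17.7%, 20% and 17.7% of all genes tested were called. With library size alone 4 of the 12 fell and 5 rose, where 1794 of the 16159 genes tested were called lower and 3395 higher. With sorafenib PKMYT1 was the 1 gene of the 12 that passed the test, where 4.8% of all genes tested were called.

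Of 9 cohesin genes, whose products hold sister chromatids together, 3 rose and 1 fell with oxaliplatin, not far from the 31.7% of all genes called in either direction. With sorafenib 0 passed edgeR's test, where the smallest adjusted p was 0.0881 at SMC1A, and DESeq2 called 2. Of all genes tested edgeR called 4.8% and DESeq2 11.1% with sorafenib. NIPBL, the cohesin loader gene, had 0.89 ± 0.15 (adjusted p = 0.00344), SMC1A 0.91 ± 0.27 (adjusted p = 0.0300), STAG2 0.84 ± 0.27 (adjusted p = 0.0419) and SMC3 -0.39 ± 0.12 (adjusted p = 0.0326). The calls of SMC1A, STAG2 and SMC3 each ended without untreated 2 or 3 or oxaliplatin 1 or 2, at adjusted p-values from 0.0586 to 0.132. Those of SMC1A and SMC3 also ended without oxaliplatin 3 (0.0710 and 0.0799), and that of STAG2 without sorafenib 3 (0.0628). The count was 1 without untreated 2, untreated 3 or oxaliplatin 1 and 2 without oxaliplatin 2. In these fits 17.7% to 20% of all genes tested were called. With library size alone as the scaling 6 of the 9 rose and 0 fell, and with the offset for GC content and length 1 rose and 3 fell. Of all genes tested 32.1% and 28.1% were called in these 2 fits. The first called 3395 genes higher and 1794 lower, the second 2009 and 2483. With the offset SMC1A and STAG2 were not called (adjusted p = 0.239 and 0.127), whereas NIPBL had 0.33 (adjusted p = 0.0170).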

How the data were processed

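Messenger RNA from TRIzol extracts was sequenced (Illumina NovaSeq) in 9 libraries, 3 per group. The deposited files hold raw counts per gene. FeatureCounts, DESeq2 and GRCh38 are named, without versions, per the submitters' processing notes. The aligner, the annotation release and the strand setting are not given in the sources used here, and gene names, lengths and coordinates came from GENCODE 29 (GRCh38).

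Groups were taken from the labels. Genes kept by edgeR's filterByExpr (16159 of 60683) were scaled by TMM and tested in edgeR 4.0.16 (R 4.3.3, limma 3.58.1) by the robust quasi-likelihood test, with 1 coefficient per group over all 9 libraries, 2-sided. P-values were adjusted by Benjamini-Hochberg over all genes tested and called under 0.05. The standard error is the log2 fold change divided by the root of F. CPM use TMM-scaled library sizes. The common biological coefficient of variation was 0.224. Scripts were tested on simulated counts.

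The 50 genes, the other gene lists and the genes given per library (those named in the question, the 5 with the smallest adjusted p of each comparison, and up to 4 per other list) were chosen with earlier results of these data known. Alternatives were another scaling (RLE factors or library size alone), DESeq2 1.42.0, other filters, only the 2 groups compared, the replicate number as a block, loess offsets (span 0.5) for GC content and length, and each library left out. The offsets for length alone, GC alone and median transcript length were added after seeing the data.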

Additional observations from a re-analysis of the deposited data

Results flagged for a closer look

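For 6 of the 50 genes the effect of oxaliplatin differed from that of sorafenib by a test of the difference itself, the comparison of the drug groups (edgeR's quasi-likelihood test, Benjamini-Hochberg adjustment over all genes tested). PLK1 differed by -0.55 ± 0.10 on the log2 scale (adjusted p = 0.00774), MAD2L1 by -0.61 ± 0.10 (adjusted p = 0.00598) and UBE2C by -0.74 ± 0.16 (adjusted p = 0.0180). BIRC5 differed by -0.54 ± 0.11 (adjusted p = 0.0179) and CDCA8 by -0.51 ± 0.10 (adjusted p = 0.0132). KIF20A differed by 0.40 ± 0.10 (adjusted p = 0.0374), in the other direction. In each gene the 3 oxaliplatin libraries lay on 1 side of the 3 sorafenib libraries. Over all genes tested 10.3% were called in this comparison, close to 6 of 50. The calls of PLK1 and MAD2L1 were kept without each library in turn, and those of the other 4 each ended without at least 1 library. With the replicate number as a block 2 of the 50 were called, and 5.01% of all genes tested.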

How the results depend on the processing

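Of the 27 calls with oxaliplatin, 20 were kept in every fit that left out 1 library, and the count over the 50 genes ran from 21 to 28. Leaving out 1 library gave 21 to 32 for the 62 other mitotic genes, and 17.7% to 32.5% of all genes tested were called in these fits. With sorafenib, where 6 genes were called, the count was 14 with DESeq2, 2 with only the 2 groups compared, 14 with the GC and length offset, 20 with median transcript length in it, 10 with length alone, 18 with GC alone and 1 to 11 with 1 library left out. The share of all genes tested was 4.8% beside the 6 calls. In the same order it was 11.1%, 2.01%, 6.57%, 7.18%, 4.64% and 7.65%, and 0.681% to 10.5% with 1 library left out. The 7 calls among the other mitotic genes became 17, 1, 11 and 14 in the first 4 of these settings, 14 with GC alone and 0 to 12 with 1 library left out. Between the drugs the 6 calls became 2 to 6 with 1 library left out, where 3.47% to 11.7% of all genes tested were called. The cause was not tested. With oxaliplatin 1 called and 11 uncalled genes of the 50 had the other sign in some alternative. Among genes called in either of the 2 fits compared, signs turned for CENPE (-0.37, median length), CENPF (-0.37 with the GC and length offset, -0.37 with the block added, -0.35 with length alone), ASPM (-0.036, -0.035 and -0.036 in the same 3), ECT2 (-0.24 with the GC and length offset, -0.32 with median length, -0.21 with GC alone) and CKAP5 (-0.073, median length). Library size alone split all calls 3395 higher to 1794 lower with oxaliplatin against 2619 to 2504, 500 to 287 with sorafenib against 456 to 319, and 1072 to 599 between the drugs against 840 to 819.

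Over all genes tested the replicate numbers showed no pairing of the libraries. Over 9 pairs with the same number the deviations correlated at -0.111 to 0.0359, and 0 of 9 libraries correlated best with its own number. A factor shared by number in single genes could be missed by this measure. MKI67 was low in library 2 of every group (deviations of -0.51, -0.74 and -0.76) and also in sorafenib 3 (-0.60). A link of MKI67 with the number was not tested. With the replicate block the counts over the 50 genes were 23 with oxaliplatin, 1 with sorafenib (22 at an unadjusted p under 0.05) and 2 between the drugs. Of all genes tested, 23.3%, 1.14% (21% at an unadjusted p under 0.05) and 5.01% were called in the same order. Among the other mitotic genes 0 passed with sorafenib in edgeR under the block (22 at an unadjusted p under 0.05), and 1 with the GC and length offset as well. With 3 libraries per group, changes near the size of the standard errors could not be detected.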
